A study of Rattus norvegicus with 176 samples.

Results

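Inmt and Nrep are 2 rat genes selected on measured values of these arrays, because their signals were strongly lower in livers of rats given clofibric acid, and they are 2 of the 10411 genes that the array annotation names. Each is read by 1 probe set, 1373975_at for Inmt (gene ID 368066) and 1371412_a_at for Nrep (gene ID 338475), and no probe set annotated to several genes names either of them. Both probe sets passed the filter on low signals in the fits of untagged, TU and PERI sections. Inmt lay at a median percentile of 86.0 among all probe sets (33.1 to 98.5 over the 176 arrays), and Nrep lay at a median percentile of 62.1 (9.30 to 97.1). Signals of different probe sets are not set against each other as levels.

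The study measured livers of F344 rats, an inbred strain, in 148 sections without a tag, 23 sections tagged TU and 5 tagged PERI, each hybridised to 1 array. Clofibric acid (CA in the titles, Clo in the sample names) is a fibrate, a class of lipid-lowering drugs that activate the nuclear receptor PPARalpha, and the titles state 5000 ppm for every rat, controls included. Control rats at -8 carry the label CtrlDEN. The groups given drug were CA rats (5j, 1m, 3m, 9m, 12m, 18m and a further group labelled 18 with no unit) and DEN-CA rats, which also had DEN (5j, 1m, 3m, 9m and 12m). Rats without drug were the DEN rats (-8, 5j, 1m, 3m, 9m and 12m) and the Control rats (the same times and 18m). The rev groups were CA rev 18m, DEN-CA rev 12m, DEN rev 12m, Control rev 12m and Control rev 18m. The labels spell out none of j, rev, TU, PERI and DEN, and the rats' ages and sexes are not given in the sources used here. Most groups had 5 rats, and the numbers of the others stand beside their values.

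INMT takes a methyl group from S-adenosylmethionine and places it on the nitrogen of tryptamine and related amines, and it also methylates some sulphur and selenium compounds. NREP, also called P311, is a small intracellular protein first described in neurons, and in mouse work it promotes the translation of TGF-beta in myofibroblasts of wounds. The genes of methyl transfer and amine metabolism and those of TGF-beta signalling are described separately after the members, as the pathways of Inmt and of Nrep.

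The sequences just before the annotated starts are shown to let a reader see how unlike the 2 promoters are in base composition, since both genes had low signal under one drug. They are the 250 bases upstream in RefSeq on GRCr8, both on the minus strand, at chr4:85652756-85653005 for Inmt and chr18:25320743-25320992 for Nrep, printed 5′ to 3′ along the gene, with capitals marking a CCAAT match and a TATAAA match.
Inmt: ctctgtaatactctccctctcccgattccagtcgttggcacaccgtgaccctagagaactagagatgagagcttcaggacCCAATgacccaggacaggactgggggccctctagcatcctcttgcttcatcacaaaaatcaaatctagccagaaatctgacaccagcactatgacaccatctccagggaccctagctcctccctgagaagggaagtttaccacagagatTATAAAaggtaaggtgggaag
Nrep: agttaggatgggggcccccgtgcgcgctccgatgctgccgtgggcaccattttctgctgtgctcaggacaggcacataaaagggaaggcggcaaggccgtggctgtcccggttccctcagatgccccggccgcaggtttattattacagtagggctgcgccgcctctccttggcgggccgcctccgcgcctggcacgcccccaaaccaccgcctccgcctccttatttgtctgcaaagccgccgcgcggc
The Inmt sequence had 50.4% G and C and 3 CG pairs, and the Nrep sequence had 66.4% and 23, against medians of 51.2% and 5 over 33469 promoters in the same table. TATAAA, searched on both strands, matched once in Inmt, at positions -21 to -16 from the start, and is found in 12.9% of the promoters. CCAAT matched once in Inmt, at positions -170 to -166, and is found in 34.0% of them. Neither motif matched in Nrep. The nuclear receptor half-site AGGTCA, found in 14.1% of the promoters, and the DR1 arrangement of half-sites to which PPARalpha binds with its partner receptor, found in 0.0508%, matched in neither sequence. These are matches of letters in a short window and not sites of binding.

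Some arrays stood apart from their groups before any comparison. A list of 20 cytotoxic lymphocyte genes, 19 of them on the array and added after the data were seen, had a summed scaled signal with a median of 1602 over the untagged sections, and 10 arrays were over 2 times that median. None of the 19 was at 0 on every array, and 11 had a median below the 40th percentile of their arrays. They were 4 arrays of rev 12m groups, 3 of rev 18m groups, 2 of CA 18 and 1 of Control 18m. The highest sums were 27299 in Control rev 18m rat 4043, 15379 in DEN-CA rev 12m rat 4111, 11935 in Control 18m rat 4040 and 6171 in Control rev 18m rat 4046. Their part in each result was not tested, and values without these arrays stand beside the tests they enter. The untagged section of CA 12m rat 4137 had less Inmt and Nrep than both the TU and the PERI section of the same animal, whereas the other 8 CA rats with TU had more Inmt in the untagged section. Whether the sections of rat 4137 carry the right tags was not tested. Among the lists checking tissue and drug, all 8 hepatocyte markers were on the array and none was at 0. Of 9 tested genes in the list of PPARalpha targets, 8 rose in both drug arms. These included Acot1, a thioesterase, at 3.56 and 3.70 on the log2 scale in CA and DEN-CA rats, Cpt1b, a carnitine palmitoyltransferase, at 2.02 and 2.10, Ehhadh, a peroxisomal oxidation enzyme, at 2.10 and 2.06, and Hdc, which makes histamine, at 3.88 and 3.78. The remaining tested gene, Pdk4, did not pass, at 0.06 and -0.17. Over all genes 18.8% rose in CA rats and 21.1% in DEN-CA rats. The drug list was chosen with earlier results of these data known, so it is not an independent check. In these bulk sections fewer cells of a type and less RNA per cell cannot be told apart.

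The drug contrasts chose both genes, so their values are a description without a test. In scaled signal, the unit used throughout, Inmt at 5j was 996, 584, 1764, 640 and 784 in the 5 CA rats, against 4504, 2675, 3772, 1821 and 2211 in the 5 Control rats. All 5 CA rats lay below all 5 Control rats, although the highest CA rat was close to the lowest Control rat. At 1m the CA rats had 286, 318, 353, 468 and 270, against 3970, 4354, 3301, 1810 and 2608 in Control rats, the largest Inmt difference of the 6 times. The CA rats at 3m ranged between 244 and 552, against 1023 to 4175 in Control rats. At 9m the CA rats ranged between 215 and 389 and the Control rats between 394 and 3401, with Control rat 4025 just above the highest CA rat. At 12m the CA rats ranged between 85.5 and 247 and the Control rats between 729 and 1434. At 18m the ranges overlapped: CA rats had 333, 416, 201, 433 and 90.01, and Control rats had 284, 1328, 1670, 64.3 and 992. The 6 rats of the group labelled 18 had 252, 261, 233, 264, 460 and 249, within the range of the Control 18m rats.

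Nrep at 5j was 105, 285, 132, 133 and 206 in CA rats, against 814, 628, 330, 2687 and 856 in Control rats. The CA rats again all lay below the Control rats, whose values spread more widely than for Inmt. At 1m the CA rats had 35.1, 57.7, 109, 49.8 and 37.7, against 1082, 1338, 268, 572 and 250 in Control rats. The 3m CA rats ranged from 29.4 up to 139, against 315 to 1549 in Control rats. For 9m the ranges were 59.4 to 98.5 in CA rats, against 259 to 1016 in Control rats. For 12m they were 52.1 to 88.2 in CA rats, against 201 to 719 in Control rats, so that the groups stayed apart. At 18m the CA rats had 83.8, 44.6, 33.6, 59.9 and 10.04, and the Control rats had 139, 558, 215, 8.38 and 179. Only Control rat 4040, the one with a high lymphocyte sum, was among or below the CA rats for Nrep, and it was also the lowest Control rat for Inmt.

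In the DEN arms Inmt at 5j was 498, 597, 483, 1143 and 738 in DEN-CA rats, against 658, 637, 815, 1366 and 1648 in DEN rats, and these groups overlapped. From 1m on they did not. The 1m range was 327 to 626 in DEN-CA rats, against 1686 to 4101 in DEN rats. The 3m range was 195 to 577 in DEN-CA rats, against 1088 to 2229 in DEN rats. Both later times kept this gap, with 271 to 586 in DEN-CA rats against 1152 to 2282 in DEN rats (9m), and 193 to 282 against 612 to 2267 (12m). Nrep separated the groups at all 5 times, including 5j, with 388, 331, 175, 178 and 85.1 in DEN-CA rats, against 503, 1525, 1500, 1503 and 863 in DEN rats. Its smallest mean difference was at 1m, with 60.03, 146, 99.2, 118 and 49.5 in DEN-CA rats, against 206, 255, 435, 346 and 758 in DEN rats. The groups did not overlap for Inmt at 5 of 6 CA times and 4 of 5 DEN-CA times, and for Nrep at 5 of 6 and 5 of 5. The genes were chosen for such differences, so these counts only describe them. The share of all probe sets without overlap was not counted, here or in the later comparisons.

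**Figure D1:**
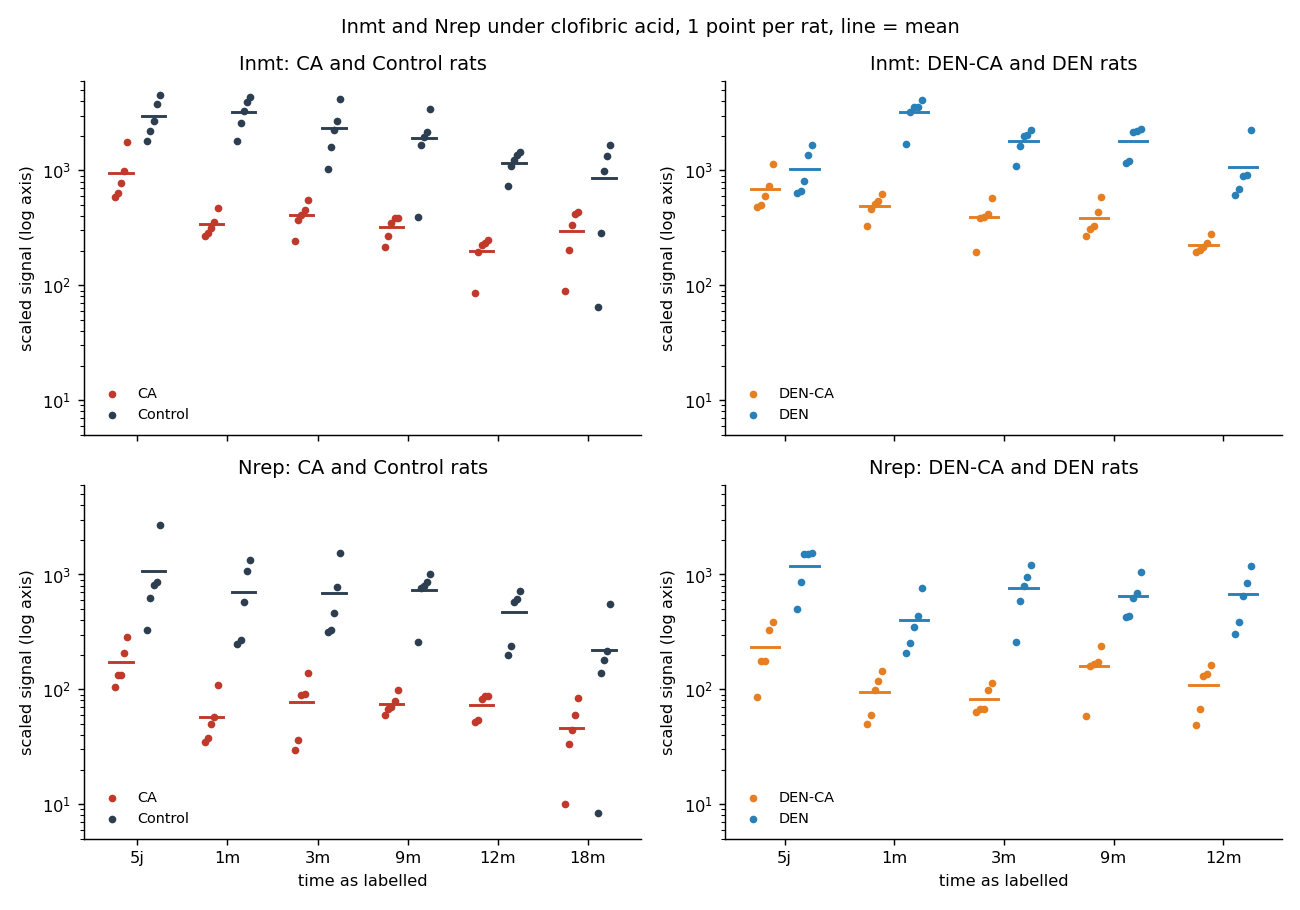
Scaled signal of Inmt (top) and Nrep (bottom) on a log axis by labelled time, 1 point per rat with the group mean as a line, for CA and Control rats (left) and DEN-CA and DEN rats (right). Drug-treated rats lie below rats without drug at every time from 1m to 12m, and CA and Control overlap at 18m.

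As mean log2 differences with their standard errors, Inmt was -2.14 ± 0.19 in CA against Control rats over 6 times (4.41-fold lower in CA) and -1.88 ± 0.21 in DEN-CA against DEN rats over 5 times (3.68-fold lower in DEN-CA). Nrep was -2.36 ± 0.19 (5.13-fold lower) and -2.19 ± 0.21 (4.57-fold lower) in the same 2 contrasts. Folds are on the log2(signal + 25) scale, which understates the change of low signals. For background, limma with Benjamini-Hochberg adjustment at 0.05 called 17.6% of the 12393 tested probe sets higher and 22.5% lower in CA rats, and 18.8% higher and 16.3% lower in DEN-CA rats. At single times the Inmt differences in CA rats were -1.66, -3.11, -2.35, -2.25, -2.46 and -1.02 at 5j, 1m, 3m, 9m, 12m and 18m, each with a standard error of 0.48. The Nrep differences were -2.20, -2.90, -2.67, -2.82, -2.20 and -1.38 at these times, each with a standard error of 0.47. Without Control rat 4040 the 18m differences were -1.69 for Inmt and -1.97 for Nrep, and with each rat left out in turn they lay between -1.69 and -0.63 for Inmt and between -1.97 and -0.94 for Nrep. The B suffix on 46 untagged sections is not explained in the labels. Arrays with it gave a drug difference at 4 of 6 CA times and 4 of 5 DEN-CA times, several from 1 array on a side, and arrays without it at all 6 and 5 times. These differences were all negative, in arrays with and then without the suffix, with Inmt between -2.95 and -1.74 and between -3.02 and -1.02 in CA rats and between -2.93 and -0.70 and between -2.97 and -0.10 in DEN-CA rats. For Nrep they lay between -3.27 and -2.49 and between -2.82 and -0.94 in CA rats, and between -2.66 and -1.47 and between -2.86 and -1.78 in DEN-CA rats.

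Whether the drug effect changed over the study, or with DEN, was tested as a difference of differences, which the choice of the genes did not use although the groups are shared with it. The CA effect at 18m less that at 5j was 0.65 ± 0.67 for Inmt (limma, adjusted p = 0.85) and 0.82 ± 0.67 for Nrep (limma, adjusted p = 0.76), in a test that called 0.726% of probe sets. Without the Control 18m rat 4040 the Inmt value was -0.03. The DEN-CA effect at 12m less that at 5j was -1.46 ± 0.67 for Inmt (limma, adjusted p = 0.49) and -0.05 ± 0.67 for Nrep (limma, adjusted p = 1.00), where 0.888% of probe sets were called. The drug effect with DEN less the effect without DEN, as the mean over 5j to 12m, was 0.49 ± 0.30 for Inmt (limma, adjusted p = 0.59) and 0.36 ± 0.30 for Nrep (limma, adjusted p = 0.73), where 0.0403% of probe sets were called. None of these 6 tests passed.

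DEN was also compared with Control in rats without drug. At -8, Inmt was 770, 1042, 1086, 664 and 570 in DEN rats, against 3332, 4858, 1984, 3595 and 1913 in Control rats. All 5 DEN rats lay below all 5 Control rats, and the log2 difference of -1.85 ± 0.48 (3.59-fold lower in DEN rats) narrowly missed the threshold (limma, adjusted p = 0.053) in a test that called 0.307% of probe sets. It passed in 4 of the 9 other settings that give an adjusted p and without 1 rat in 2 of 10 cases, DEN rat 4050 or Control rat 4005. Within the B suffix arrays, which hold 4 DEN and 5 Control rats, the difference was -1.94. Nrep at -8 was 290, 1146, 216, 643 and 1018 in DEN rats, against 1193, 855, 917, 1023 and 2638 in Control rats, groups that overlapped, with a log2 difference of -1.10 ± 0.47 (limma, adjusted p = 0.31).

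At 5j Inmt was again lower in every DEN rat than in every Control rat, with a mean of 1025 ± 457 in DEN rats and 2997 ± 1116 in Control rats (SD, n = 5 each). The log2 difference of -1.55 ± 0.48 did not pass (limma, adjusted p = 0.42), with 0.0403% of probe sets called. Nrep at 5j averaged 1179 ± 470 in DEN rats and 1063 ± 931 in Control rats, a log2 difference of 0.37 ± 0.47 (limma, adjusted p = 0.83). At later times the Inmt differences were 0.01, -0.27, 0.12 and -0.25 at 1m, 3m, 9m and 12m, and those of Nrep -0.61, 0.24, -0.15 and 0.50. The DEN differences at single times from 5j on were added after seeing the data. DEN and Control rats from 5j to 12m are also the undrugged arms of the contrasts that chose the genes. As the mean over 5j to 12m, Inmt was -0.39 ± 0.21 (limma, adjusted p = 1.00) and Nrep 0.07 ± 0.21 (limma, adjusted p = 1.00), where 0.0161% of probe sets were called. At 3m the Nrep difference was -1.23 within arrays with the B suffix and 1.22 within arrays without it.

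**Figure D2:**
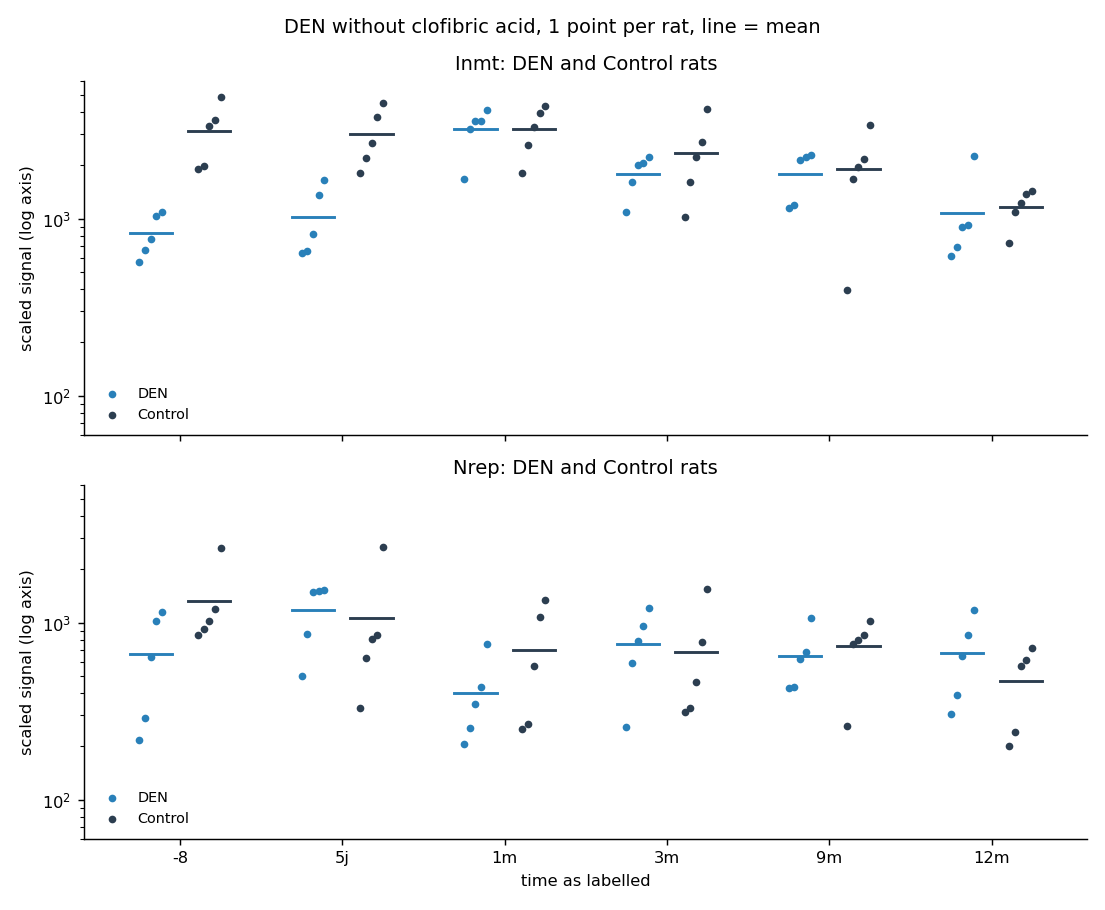
Scaled signal of Inmt (top) and Nrep (bottom) on a log axis in DEN and Control rats without drug by labelled time, 1 point per rat with the group mean as a line. For Inmt the 5 DEN rats lie below the 5 Control rats at -8 and 5j and overlap them at the later times, and for Nrep the groups overlap at all 6 times.

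Both genes fell between the labelled times 5j and 18m in Control rats, whose ages are not given. Inmt had a mean of 868 ± 681 in Control 18m rats and 2997 ± 1116 in Control 5j rats (SD, n = 5 each), all 5 rats at 18m lying below all 5 at 5j. The log2 difference was -2.31 ± 0.48 (4.95-fold lower at 18m) with an adjusted p of 0.00044 by limma, in a test that called 7.22% of probe sets. Nrep had a mean of 220 ± 204 in Control 18m rats and 1063 ± 931 in Control 5j rats, groups whose ranges overlapped, and a log2 difference of -2.31 ± 0.47 (limma, adjusted p = 0.00038). Without the lymphocyte-high rat 4040 the differences were -1.63 for Inmt and -1.71 for Nrep, and both still passed (limma, adjusted p = 0.026 and 0.018). The median hepatocyte marker sum was 72191 in Control 18m rats and 90126 in Control 5j rats, and its 8 genes did not pass. The pericentral sum was 20168 in Control 18m rats (15823 to 25990) and 28576 in Control 5j rats (27205 to 32341), with 1 of 8 genes fallen, Cyp7a1, an enzyme of bile acid synthesis, which fell by 1.02. Of 11 stellate and fibroblast genes 2 collagens fell, Col3a1 (-1.04) and Col1a2 (-0.64), and of 10 periportal genes 2 fell. The part of these cells was not tested. In a fit of these 2 groups alone they did not pass, with adjusted p = 0.068 for Inmt and 0.067 for Nrep (limma, n = 5 each). Control rats of both times are also in the contrasts that chose the genes.

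The contrasts between rev groups are not those that chose the genes. In CA rev 18m rats Inmt was 451, 309, 344 and 359, against 130, 642 and 128 in the 3 Control rev 18m rats. The 4 CA rev rats lay inside the Control rev range, and the log2 difference was 0.62 ± 0.57 (limma, adjusted p = 0.82), with 0.734% of probe sets called. Nrep was 117, 110, 143 and 141 in CA rev rats, against 74.7, 225 and 19.9 in Control rev rats, a log2 difference of 0.55 ± 0.57 (limma, adjusted p = 0.84). The 2 Control rev rats low in Inmt, 4043 and 4046, had lymphocyte sums of 27299 and 6171. Leaving out the arrays high in lymphocyte genes leaves 1 Control rev 18m rat, 4044, against 3 CA rev rats. The differences from that single rat were -0.88 for Inmt and -0.69 for Nrep, in a fit that assumes it varies like the other groups. Set beside the CA groups without rev, Inmt means were 366 in CA rev 18m, 295 in CA 18m and 287 in CA 18. The Nrep means were 128, 46.4 and 64.2. All 4 CA rev rats had more Nrep than every CA 18m and CA 18 rat, while Inmt overlapped both groups. These groups contain the drug arms that chose the genes, so no test is given.

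In DEN-CA rev 12m rats Inmt was 79.2, 1142, 702, 1176 and 772, against 1181, 827, 113, 2996, 818 and 91.6 in DEN rev 12m rats. The groups overlapped throughout, and the log2 difference was 0.05 ± 0.46 (limma, adjusted p = 1.00). This standard error rests on the spread pooled over all untagged groups (SD 0.77 on the log2 scale for Inmt). The Inmt log2 values ran from 6.7 to 10.2 in DEN-CA rev rats and from 6.9 to 11.6 in DEN rev rats. The pooled spread is therefore likely too small for these 2 groups. Nrep was 242, 611, 703, 344 and 675 in DEN-CA rev rats, against 361, 359, 15.5, 99.3, 186.9 and 42.4 in DEN rev rats, and 3 of 5 DEN-CA rev rats lay above every DEN rev rat. The log2 difference of 1.76 ± 0.45 (3.39-fold higher in DEN-CA rev rats) did not pass at an adjusted p of 0.10 by limma, in a test that called 0.121% of probe sets. It passed without DEN rev rat 4078 (adjusted p = 0.028) or without rat 4080 (adjusted p = 0.023), both by limma, and with array weights (adjusted p = 0.0073 by limma), but in 9 of 11 cases with 1 rat left out it did not, with adjusted p up to 0.99. Without the lymphocyte-high arrays the value was 1.58 (limma, adjusted p = 0.81). Compared with Control rev 12m rats (added after seeing the data), where Inmt was 1325, 1754, 1575 and 1632 and Nrep 194, 430, 267 and 288, Inmt in DEN-CA rev rats differed by -1.38 ± 0.50 (limma, adjusted p = 0.62) and Nrep by 0.70 ± 0.50 (limma, adjusted p = 0.92), with 0.137% of probe sets called. DEN rev rats differed from the same Control rev rats by -1.43 ± 0.49 for Inmt (limma, adjusted p = 0.96) and -1.06 ± 0.48 for Nrep (limma, adjusted p = 1.00), with 0.00807% called. Without the lymphocyte-high arrays, DEN-CA rev less Control rev was -0.82 for Inmt and 0.90 for Nrep, and DEN rev less Control rev was -0.99 for Inmt and -0.68 for Nrep, and none of these passed. These comparisons share their Control rev rats.

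**Figure D3:**
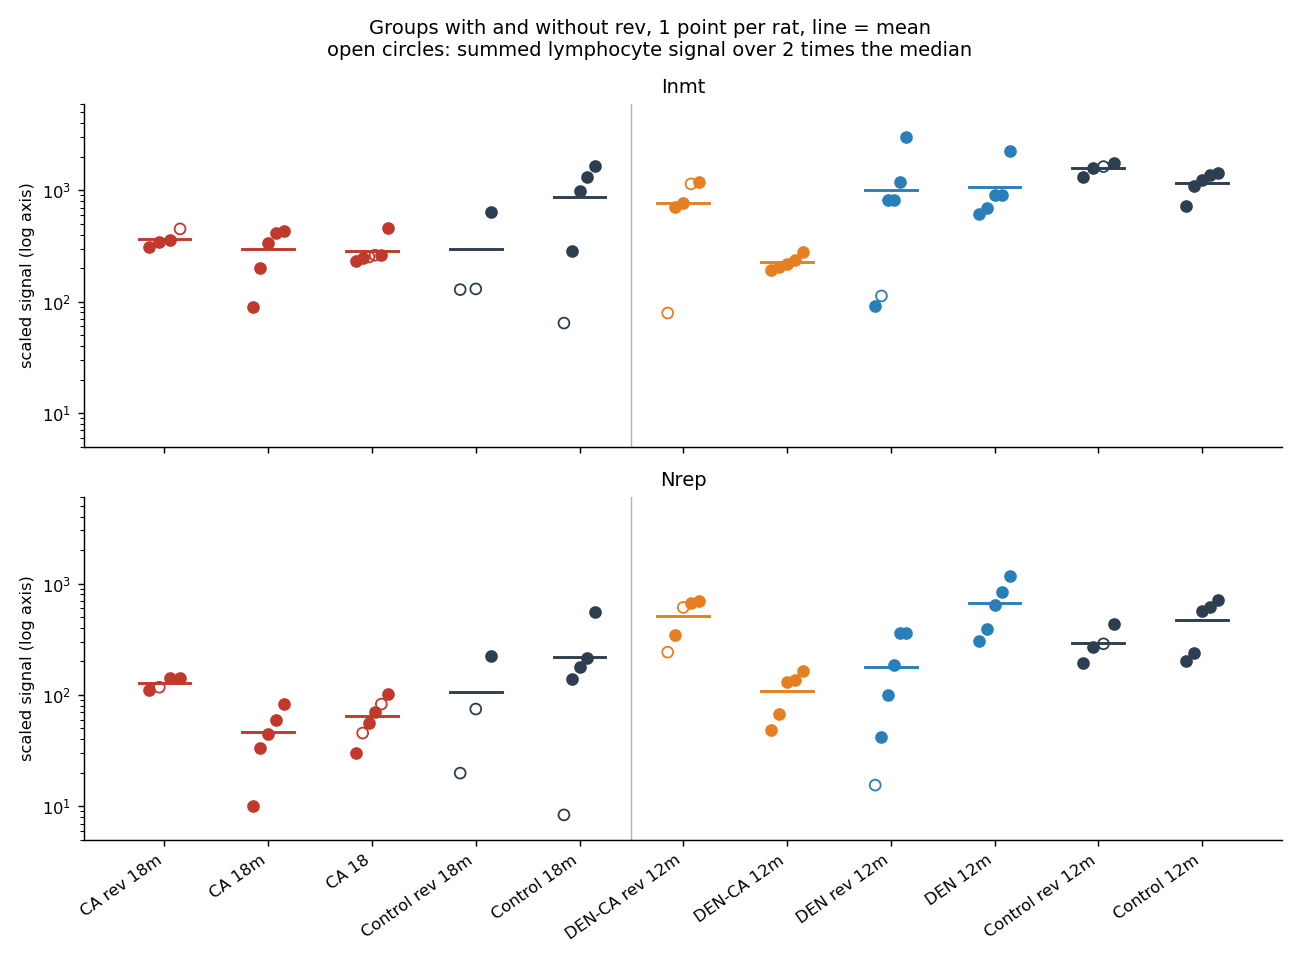
Scaled signal of Inmt (top) and Nrep (bottom) on a log axis in the rev groups and the groups without rev at 18m, 18 and 12m, 1 point per rat with the group mean as a line. Open circles are the 10 arrays whose lymphocyte sum was over 2 times the median. They are the lowest Inmt values in Control 18m and Control rev 18m. In DEN-CA rev 12m 1 open circle is the lowest Inmt value (79.2) and the other, rat 4112, is at 1142. Open circles are not the lowest in CA 18, CA rev 18m, Control rev 12m or DEN rev 12m. The lowest DEN rev 12m rat (91.6) is filled, with a lymphocyte sum of 3089, just under the cut of 3203.

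The genes were set against each other within each rat as Inmt less Nrep on the log2 scale, and the difference was compared between groups by a two-sided exact permutation test. It averaged 1.35 ± 0.27 in CA rev 18m rats and 1.28 ± 0.58 in Control rev 18m rats (SD, n = 4 and 3, exact p = 0.91, adjusted 0.91). It averaged 0.28 ± 1.13 in DEN-CA rev 12m rats and 1.99 ± 1.35 in DEN rev 12m rats (SD, n = 5 and 6, exact p = 0.035, adjusted p = 0.069 over the 2 comparisons). The difference between groups, DEN-CA rev less DEN rev, was -1.71, so Nrep was higher relative to Inmt in DEN-CA rev rats, without passing after adjustment.

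TU and PERI sections came from rats that also gave an untagged section, and each was compared within its rat, TU sections of 1 rat being averaged. The untagged sections in these pairs belong to the drug arms whose low signals chose the genes, so these tests share samples with that choice. In the 7 DEN-CA rats with TU sections Inmt was 67.0, 90.03, 117, 71.0, 113, 154 and 87.0 in TU, against 312, 586, 434, 205, 193, 216 and 79.2 in the untagged sections of the same rats. Inmt was lower in TU in 6 of 7 rats, with a log2 difference of -1.17 ± 0.31 (2.26-fold lower) and an adjusted p of 0.0082 by limma, the exception being rev rat 4111. Nrep was 43.3, 40.8, 111, 82.2, 44.7, 18.6 and 101 in TU, against 166, 174, 241, 135, 129, 48.8 and 242 in the untagged sections. It was lower in TU in 7 of 7 rats, with a log2 difference of -1.09 ± 0.21 (2.13-fold lower) and an adjusted p of 0.0011 by limma. The test called 29.6% of 11566 probe sets, so a passing gene is common in it. The summed pericentral hepatocyte markers had a median of 7768 in TU (5364 to 16493) and 16531 in the untagged sections (14508 to 28490), and the macrophage markers 3123 in TU and 5373 in the untagged sections. The endothelial sum did not overlap, with a median of 799.7 in TU (562 to 1126) and 2005 in the untagged sections (1438 to 2111), and 3 of 6 tested endothelial markers fell. Median sums were higher in TU than in untagged sections for hepatocyte (61313 against 58416), bile duct (734 against 533) and stellate markers (2008.5 against 1775). The periportal sum was lower (28805 against 31659). The sum over PPARalpha targets had a median of 6821 in TU and 18056 in the untagged sections, and 6 of 9 tested genes fell. The part of these cells or drug targets in the Inmt and Nrep values was not tested.

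In the 9 CA rats with TU sections Inmt was lower in TU in 8 of 9, with a lowest, median and highest value of 47.1, 133 and 375 in TU and 85.5, 252 and 416 in the untagged sections. The log2 difference of -0.74 ± 0.28 did not pass (limma, adjusted p = 0.12) in a test that called 3.74% of probe sets. Rat 4137 was the exception, with 375 in TU and 85.5 in its untagged section, and without it the value was -1.07 and passed (limma, adjusted p = 0.00052). Nrep differed by 0.02 ± 0.19 (limma, adjusted p = 0.95) and was lower in TU in 5 of 9 rats, with ranges of 19.2 to 233 in TU and 10.04 to 141 in the untagged sections. Without rat 4137 it was -0.19. The untagged Nrep signals were already low in these CA rats, with a median of 70.1, against 166 in the DEN-CA rats with TU. Because the log2 scale used here understates changes of low signals, a fall of Nrep would show less in CA rats. The Nrep test in CA rats and the comparison of Nrep between arms are limited by this, and its size was not tested. The difference between arms, DEN-CA less CA, was -0.43 ± 0.42 for Inmt (limma, adjusted p = 0.65) and -1.11 ± 0.28 for Nrep (limma, adjusted p = 0.19). Without rat 4137 these were -0.10 for Inmt and -0.90 for Nrep. That test called 0 probe sets (0%) by limma, with 1812 at an unadjusted p under 0.05. The DEN-CA rats with TU were labelled 9m, 12m and rev 12m. The CA rats with TU were labelled 12m, 18m, 18 and rev 18m. Arm and labelled time therefore cannot be told apart in this comparison.

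**Figure D4:**
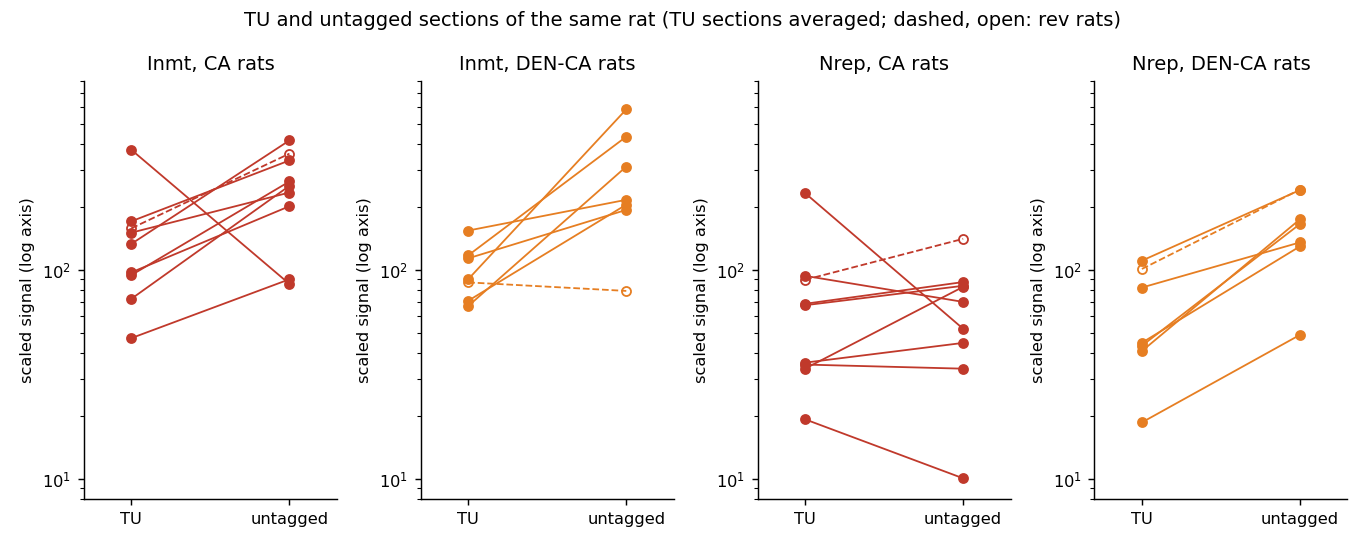
Scaled signal of Inmt and Nrep on a log axis in TU (left) and untagged (right) sections joined by rat, in CA and DEN-CA rats, TU sections of a rat averaged, with rev rats dashed and open. In DEN-CA rats the lines rise to the untagged section in 6 of 7 rats for Inmt and 7 of 7 for Nrep, while for Nrep in CA rats they run both ways.

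In PERI sections of 5 rats, 3 CA and 2 DEN-CA, Inmt was 460, 300, 610, 566 and 247 in PERI, against 85.5, 333, 416, 586 and 216 in the untagged sections, a log2 difference of 0.53 ± 0.29 (limma, adjusted p = 1.00). Nrep was 264, 133, 78.2, 123 and 85.5 in PERI, against 52.1, 83.8, 44.6, 174 and 48.8, a log2 difference of 0.63 ± 0.27 (limma, adjusted p = 1.00). Limma called 0 probe sets (0%), with 283 at an unadjusted p under 0.05. Rat 4137 carried the largest PERI differences for both genes, 2.13 for Inmt and 1.90 for Nrep. Without it the PERI difference was 0.13 for Inmt and 0.31 for Nrep.

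Across the 30 untagged groups, Inmt ran over 3.88 on the log2 scale between DEN 1m, the highest, and CA 12m, the lowest, and Nrep over 4.21 between Control -8 and CA 18m. No 2 neighbouring groups in either order were farther apart than 0.45 for Inmt and 0.42 for Nrep, less than the standard errors of 0.48 and 0.47 of a difference between groups of 5 rats. With 30 groups over these spans small gaps follow largely from the number of groups. For Inmt the first 12 places were held by Control and DEN groups, with CA 5j in place 13, and Control rev 18m stood in place 28 among drug groups. For Nrep the first 10 places were held by Control and DEN groups and DEN-CA rev 12m stood in place 11.

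Over the group means of 8733 genes, the 5 most like Inmt by Pearson correlation were Hsd3b7, Agt, Baat, Asrgl1 and Atp2c1, at 0.915, 0.890, 0.874, 0.870 and 0.870. The 5 most like Nrep were C2cd2, Sppl2a, Mlc1, Agt and Mmp2, at 0.918, 0.917, 0.898, 0.895 and 0.894, and Agt, which encodes angiotensinogen, stands in both sets. Hsd3b7 and Baat are enzymes of bile acid synthesis and conjugation. Nrep was 9th for Inmt and Inmt 25th for Nrep, at 0.855. These correlations follow the drug contrast that chose the members and share its groups, and are given as description.

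Within groups, after subtracting group means, Inmt and Nrep deviations correlated at r = 0.35 over 148 rats (Spearman rho 0.18), with permutation p = 0.0037 and 0.058, adjusted to 0.017 and 0.17 over 9 sets of rats. Without the 2 rats farthest from the median of the Inmt deviations r was 0.24 (permutation p = 0.055). Within arrays it was -0.19 over 41 rats with the B suffix and 0.51 over 97 without it, and 0.68 over 22 rats of rev groups. Without the lymphocyte-high arrays r was 0.13 over 137 rats (permutation p = 0.27). Without the 2 rats farthest from the median Inmt level r was 0.28 (permutation p = 0.017, adjusted 0.039). Among CA and DEN-CA rats without rev r was 0.14 over 61 rats (permutation p = 0.36). Among Control and DEN rats without rev r was 0.25 over 65 rats (permutation p = 0.15). The relation did not hold in these 2 sets, within B suffix arrays or without the lymphocyte-high arrays.

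**Figure D5:**
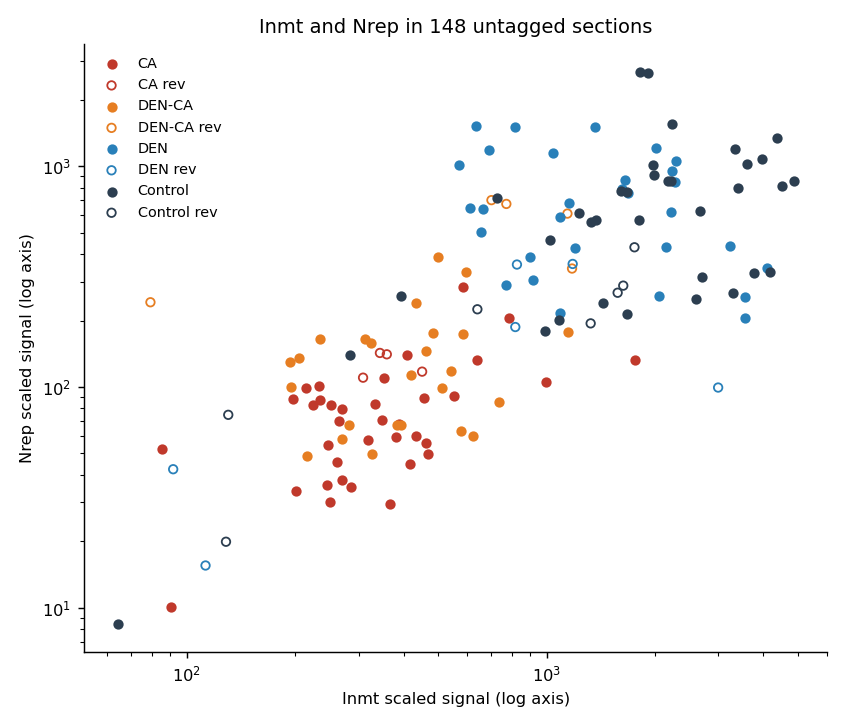
Scaled signals of Inmt and Nrep on log axes in all untagged sections, coloured by arm, with rev groups open. CA and DEN-CA sections mostly lie at low signals of both genes and Control and DEN sections at high ones. The lowest Inmt signals are of a few Control, CA and rev sections.

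The lists of related genes were chosen with results of these data known, and are described by counts. Of 23 genes of methyl transfer and amine metabolism, 16 were tested, and in CA rats 7 fell and 1 rose while in DEN-CA rats 5 fell and 1 rose, with list medians of -0.13 and -0.12 against -0.01 and 0.00 over all genes. Genes that fell in both arms were Cbs, which makes cystathionine from homocysteine (-0.82 and -0.70 in CA and DEN-CA rats), Maob, an amine oxidase (-0.58 and -0.46), Gamt, the methyltransferase that makes creatine (-0.34 and -0.33), and Ahcy, which splits S-adenosylhomocysteine (-0.17 and -0.16). Maoa, the other monoamine oxidase, rose by 0.17 and 0.18. Of 24 TGF-beta signalling genes, 19 were tested, and 8 fell and 1 rose in CA rats while 7 fell and 3 rose in DEN-CA rats, with list medians of -0.16 and -0.11. Tgfbr1, a TGF-beta receptor, fell by 0.55 and 0.37, Pmepa1, a TGF-beta target, by 0.57 and 0.74, and Skil, a repressor of Smad proteins, by 0.55 and 0.47. Ccn2, also a TGF-beta target, rose by 0.21 and 0.36. Over all genes 18.8% rose and 22.6% fell in CA rats, and 21.1% rose and 16.3% fell in DEN-CA rats.

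Markers of other cells moved with the drug too, not all in 1 direction. The shares over all genes were 18.8% higher and 22.6% lower in CA rats, and 21.1% and 16.3% in DEN-CA rats. Of 6 tested endothelial genes 3 fell in CA rats, while in DEN-CA rats none fell and 1 rose. Of 3 tested bile duct genes Epcam rose in both arms (1.00 and 1.01) and none fell. The bile duct sum had a median of 489 in CA rats and 266 in Control rats. Of 7 tested macrophage and Kupffer cell markers, 7 fell in both arms, and the summed signal of that list had a median of 4607 in CA rats (2687 to 6222) and 6295 in Control rats (4495 to 10943). Of 11 tested stellate cell and fibroblast markers, 6 fell in CA rats and 7 in DEN-CA rats, with medians of the sum of 1696 and 2180 in CA and Control rats. Of 8 general hepatocyte markers 1 rose and 1 fell in CA rats, and 5 fell in DEN-CA rats. Of 8 tested pericentral hepatocyte genes 4 fell in CA rats, while in DEN-CA rats 4 fell and 1 rose. Those that fell in both arms include Oat, an ornithine aminotransferase, at -2.75 in CA and -2.55 in DEN-CA rats on the log2 scale. Rgn, a calcium-binding lactonase, was another, at -1.23 and -1.11. Among the genes that passed in neither arm were Glul at 0.09 and 0.04 and Cyp2e1 at 0.01 and -0.17. Cyp7a1, the gene that rose in DEN-CA rats (0.46), was at 0.12 in CA rats without passing. The median pericentral sum was 18783 in CA rats (8297 to 29242) and 25062 in Control rats (15823 to 35149). Of 10 periportal genes 7 fell and 1 rose in CA rats, and 9 fell and 1 rose in DEN-CA rats. Hal, a histidine lyase, fell (-0.88 and -0.66), and Hsd17b13 rose (0.80 and 1.07). The part of these cells in the Inmt and Nrep differences was not tested. In TU sections of DEN-CA rats 8 of 8 tested pericentral hepatocyte markers fell, and Cyp1a2, a cytochrome P450, fell by 3.27 on the log2 scale. In the same sections 5 of 7 macrophage markers fell, while of 11 stellate markers 3 rose and 2 fell. Of 15 tested methyl transfer and amine genes 6 fell and 3 rose there, and Cbs fell by 1.38 and Ahcy fell by 0.60. Of 19 tested TGF-beta genes 3 fell and 1 rose, the one that rose being Pmepa1 (0.60), which had fallen in both drug arms. Over all genes 12.7% rose and 17.8% fell in TU of DEN-CA rats.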

How the data were processed

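Gene expression was measured in rat liver sections on Affymetrix arrays, and the deposited values are the authors' linear MAS5 intensities, per the submitters' processing notes, with no version given. Each array was scaled here to the median of array medians (99.35, array medians 25.35 to 187.25), since their 90th percentile was 2.13 times their 10th, 25 was added and log2 taken, and a probe set was tested where it exceeded the 40th percentile of an array on 3 or more arrays of the fit. Probe sets with 1 gene symbol (12783 of 15922) were named from the array annotation, 312 name several genes and 2827 none. Fits used limma 3.58.1 (R 4.3.3) with 1 mean per group over untagged sections (118 residual degrees of freedom), or per-rat differences of tagged less untagged sections (14 for TU and 4 for PERI), and Benjamini-Hochberg adjustment over all tested probe sets at 0.05. The standard error of a log2 difference comes from a spread pooled over the groups of its fit. It can be too small where rats vary more, such as in Control 18m, Control rev 18m, DEN rev 12m and DEN-CA rev 12m. TU and PERI sections were paired with the untagged section that carries the same rat number in the titles. Other values were computed with pandas 2.3.3, NumPy 2.4.6 and SciPy 1.17.1, permutation tests with 100000 resamples or exactly. The fits were tested on simulated data. The labels give separate rat numbers, but not whether rats of a group shared cages or litters. Alternatives tried were quantile normalization or unscaled values, an offset of 6 or 99, the 70th percentile or no filter, array weights, the B suffix as a covariate, fits of single contrasts and leaving out rats. Leaving out lymphocyte-high arrays, the lymphocyte list, the DEN comparisons at single times from 5j and those with Control rev 12m were added after seeing the data. The members and gene lists were chosen with earlier results of these data known. Named genes were the members, the 5 most like each over group means, list genes that passed in both mean drug contrasts, and Acot1, Cpt1b, Ehhadh and Hdc of the drug check. Glul, Cyp2e1, Cyp7a1 and Pdk4 were also named, to show list genes that did not pass in both. The number of arrays limits precision, and no sections were excluded.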

Additional observations from a re-analysis of the deposited data

Results flagged for a closer look

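Dixon's criterion was applied to each gene in each group large enough for it, 58 tests in all. In 5 of these tests 1 rat lay far from the others of its group, which chance meets in about 1 in 20 tests. Inmt was 85.5 in CA 12m rat 4137, against 197 to 247 in the other 4 rats. It was 460 in CA 18 rat 4157, against 233 to 264 in the other 5. It was 1686 in DEN 1m rat 4062, against 3227 to 4101. It was 79.2 in DEN-CA rev 12m rat 4111, against 702 to 1176. Nrep was 259 in Control 9m rat 4025, against 761 to 1016.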

How the results depend on the processing

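The mean drug differences kept their direction in every setting tried, between -2.37 and -1.95 for Inmt and between -2.61 and -1.78 for Nrep in CA rats, and between -2.22 and -1.70 and between -2.37 and -1.73 in DEN-CA rats. Over all alternative values, 1101 kept direction and, where tested, their side of the threshold. Drug differences and values without a test counted as kept when they moved by less than the replicate spread. Of the other values 37 changed sign, 11 newly passed, 6 moved by over the replicate spread and 2 no longer passed. Control 18m against Control 5j fell short of the threshold in the fit of its 2 groups alone (-2.31, adjusted p 0.068 for Inmt and 0.067 for Nrep). The Inmt difference at -8 passed with array weights (-1.84), the 70th percentile filter (-1.85), an offset of 99 (-1.76) and its 2 groups alone (-1.85), and Nrep in DEN-CA rev against DEN rev passed with array weights (1.82). The Nrep difference between TU arms passed without scaling (-1.43). The CA effect at 18m less that at 5j for Inmt was -0.31 with array weights and -0.028 without lymphocyte-high arrays. CA rev against Control rev was -0.88 for Inmt and -0.69 for Nrep without those arrays, which leaves a single Control rev rat, assumed to vary like the other groups. DEN against Control at 5j within arrays without the B suffix was -2.50 for Inmt and 1.35 for Nrep. The mean DEN difference of Nrep was -0.027 with array weights, -0.036 without 12m and -0.0040 without 5j. The DEN-CA effect at 12m less that at 5j for Nrep was 0.27 with array weights, 0.023 without scaling, 0.14 with an offset of 99 and 0.0033 with quantile normalization. DEN-CA rev against DEN rev for Inmt was -0.041 with quantile normalization. DEN against Control at 1m for Inmt was -0.047 with array weights, -0.032 with the B suffix as a covariate, and -0.071 and -0.11 within arrays with and without it. At 3m Nrep was -1.23 within B suffix arrays and at 9m Inmt was -0.25 without scaling. The cause was not tested.

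With each rat left out in turn, the CA effect at 18m less that at 5j for Inmt lay between -0.028 and 1.03, CA rev against Control rev for Nrep between -0.055 and 1.18, DEN at -8 for Inmt between -1.999 and -1.67, the DEN-CA effect at 12m less that at 5j for Nrep between -0.31 and 0.22, and DEN-CA rev against DEN rev between -0.42 and 0.69 for Inmt and between 1.38 and 2.04 for Nrep. TU in CA rats lay between -1.07 and -0.65 for Inmt and between -0.19 and 0.14 for Nrep. Counts of called probe sets moved by more than 1.5 times. For TU in CA rats the count was 432, against 1 without a filter, 1 without rat 4152 and 2504 without rat 4137. For CA rev against Control rev at 18m it was 91, with 0 to 166 over settings and 7 without rat 4043. It was 38 for DEN at -8 (5 to 150), 15 for DEN-CA rev against DEN rev (5 to 34), 17 for DEN-CA rev against Control rev (9 to 104), 90 for the CA effect over time (26 to 161), 110 for the DEN-CA effect over time (28 to 182), 5 for the drug effect by DEN (0 to 76), 3418 for TU in DEN-CA rats (1450 to 3656), 4346 for the mean DEN-CA effect (2393 to 4689), and 895 (268 to 1871) for Control 18m against Control 5j. Without the replicate block, the paired TU value was -1.17 for Inmt and -1.09 for Nrep in DEN-CA rats, and no call changed. At the 70th percentile filter Nrep was not tested for PERI. The labels do not say what the B suffix marks, and 3 Control rev 18m rats limit that comparison.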
